A study of Homo sapiens with 13 samples.

Results

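The genes described here are 10 negative-feedback genes of the extracellular signal-regulated kinase (ERK) pathway: the mitogen-activated protein kinase (MAPK) phosphatases DUSP1, DUSP4, DUSP5 and DUSP6, the Sprouty genes SPRY1, SPRY2 and SPRY4, the Sprouty-related genes SPRED1 and SPRED2, and PHLDA1. They were chosen by symbol, and each was found once among the 62703 genes of both deposited count tables. All 10 passed the filter on low counts in both cell lines, so each was tested in all 4 comparisons. RNA was sequenced from 13 libraries of the human ovarian cancer cell lines SKOV3 and OVCAR3. SKOV3, a line known for amplified ERBB2, was measured in 3 groups of 3 libraries: overexpression of RSF1delUAB, overexpression of RSF1, and control vector, with no treatment listed. RSF1 is a chromatin remodelling subunit and histone chaperone that binds ubiquitinated histone H2A through the region called UAB, which the first construct is named as lacking. OVCAR3, a line from a serous carcinoma, was measured in 2 groups of 2 libraries, expressing the UAB peptide or a scramble control. Both OVCAR3 groups had received 2000 ng/mL doxycycline for 6 days, so that any effect of doxycycline is shared by them; no OVCAR3 library without it was analysed here.

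ERK is switched on by growth factor receptors through RAS, RAF and MEK, and in turn raises the transcripts of several proteins that switch the pathway off. MAPK phosphatases remove the activating phosphates from ERK and its relatives p38 and JNK, whereas Sprouty and SPRED proteins act higher up, between receptor, RAS and RAF. Because their transcripts follow pathway output in many tumour cells, several of these genes are used in other settings as readouts of ERK activity; ERK activity itself was not measured in these libraries.

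Of the members, 8 had an entry in the RefSeq table of promoter sequences (GRCh38.p14), and DUSP4 and DUSP5 had none. The 250 bases before the annotated start are printed for 3 genes that differed in how they moved in SKOV3: DUSP1 was higher with RSF1, SPRY2 was lower mainly with full-length RSF1, and PHLDA1 was lower with both constructs. Each is read 5′ to 3′ on its own strand, which is the minus strand for all 3 genes, and spans chr5:172771196-172771445 for DUSP1, chr13:80341127-80341376 for SPRY2 and chr12:76031777-76032026 for PHLDA1. Capitals mark matches to the motifs searched on both strands.
DUSP1: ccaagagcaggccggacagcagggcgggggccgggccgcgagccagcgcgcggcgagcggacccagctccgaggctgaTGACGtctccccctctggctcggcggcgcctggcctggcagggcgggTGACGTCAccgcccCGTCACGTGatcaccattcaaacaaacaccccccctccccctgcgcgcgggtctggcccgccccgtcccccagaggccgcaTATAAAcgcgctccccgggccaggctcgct
SPRY2: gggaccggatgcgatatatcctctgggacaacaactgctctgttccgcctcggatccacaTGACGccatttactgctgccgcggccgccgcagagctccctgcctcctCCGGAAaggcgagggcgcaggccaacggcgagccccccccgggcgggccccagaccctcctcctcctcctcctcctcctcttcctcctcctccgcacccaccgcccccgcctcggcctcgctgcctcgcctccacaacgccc
PHLDA1: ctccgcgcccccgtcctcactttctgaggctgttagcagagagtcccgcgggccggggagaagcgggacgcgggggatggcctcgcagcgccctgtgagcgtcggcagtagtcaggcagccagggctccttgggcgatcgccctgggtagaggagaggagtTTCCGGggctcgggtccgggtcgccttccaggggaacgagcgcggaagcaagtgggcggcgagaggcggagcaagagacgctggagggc
The motifs were the cyclic AMP response element (CRE) TGACGTCA, its shorter core TGACG, the AP-1 site TGANTCA, the ETS core CCGGAA, the E-box CACGTG, the TATA box TATAAA and the serum response element. DUSP1 held 1 full CRE, which contains 2 of its 4 cores, 1 E-box that overlaps another core, and 1 TATA box. SPRY2 held 1 CRE core and 1 ETS core, and PHLDA1 held 1 ETS core on the opposite strand. SPRY4 held 1 CRE core, while DUSP6, SPRY1, SPRED1 and SPRED2 held none of the 7 motifs in this window. Of 35116 RefSeq windows of the same length, 1.65% held the full CRE, 21.2% the CRE core, 6.57% the AP-1 site, 14.5% the ETS core, 6.34% the E-box, 10.7% the TATA box and 1.16% the serum response element. A match says only that these letters are present.

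Library totals were 15194678 to 18748009 counts in SKOV3 and 18160558 to 24026993 counts in OVCAR3. The first RSF1 library stood apart from the other two of its group, where chi-square over genes, divided by its degrees of freedom, was 14.2 and 16.3, against 3.91 between the other two, so the members' counts and the values it moves most are also given without it. In OVCAR3 this value was 12.9 between the UAB-peptide libraries and 15 between the scrambled-peptide libraries. Mitochondrial genes took 4.39% to 5.21% of counts with RSF1delUAB, 4.12% to 4.33% with RSF1, 3.51% to 3.59% with control vector, 6.22% to 6.57% with the UAB peptide and 7.23% to 7.48% with the scrambled peptide. The RSF1 transcript set both constructs apart from control vector, with a log2 fold change of 3.47 for RSF1delUAB and 4.03 for RSF1, but gene-level counts cannot show which libraries lack UAB. It was no check in OVCAR3, where it was 0.11. Between RSF1delUAB and RSF1 libraries its log2 fold change was -0.56, so the constructs were not at equal transcript levels. Of 6 epithelial markers, EPCAM, KRT7, KRT8, KRT18 and KRT19 were present in both lines. CDH1 averaged 0.169 to 0.415 TPM (counts divided by gene length and scaled to the same total in every library) in the SKOV3 groups. Of 6 Müllerian and ovarian carcinoma markers, PAX8 averaged 147 to 269 TPM, SOX17 77.6 to 95.6 TPM and MSLN 7.49 to 17.9 TPM in the SKOV3 groups. WT1 averaged 0.0948 to 1.48 TPM and EMX2 0.0264 to 0.114 TPM there, and MUC16 was below 0.1 TPM in each SKOV3 group. The summed level of 8 fibroblast markers, led by LUM, was 127 to 143 TPM with RSF1delUAB, 41.0 to 48.8 TPM with RSF1 and 3.34 to 3.56 TPM with control vector, where 5 of the 8 were below 0.1 TPM; its part in the results below was not tested. The sum of 7 immune markers was at most 1.75 TPM in SKOV3; in OVCAR3 it was 2.19 to 2.79 TPM with the UAB peptide and 10.6 to 15.4 TPM with the scrambled peptide, mostly CD14, with PTPRC below 0.2 TPM and MS4A1 at 0, and its part was not tested. The sum of 5 endothelial markers was at most 4.26 TPM in SKOV3 and 11.4 TPM in OVCAR3. Nothing in the labels shows that the libraries of a group came from separate cultures. If they did not, the p-values reflect technical spread alone. If the cells of each group were derived only once, the construct or peptide cannot be told apart from other differences between the derived cells, even with separate cultures. In bulk RNA, fewer cells with a transcript and less of it per cell cannot be told apart.

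Most of the feedback genes were lower in SKOV3 cells that overexpressed RSF1. Against control vector, 8 of 10 members fell, DUSP1 alone rose and SPRED1 did not pass the threshold of an adjusted p of 0.05. Over all 16735 tested genes, 67.3% were called either way, 34.3% higher and 32.9% lower, so that a call as such is common in this comparison and the one-sidedness of the members is described only by their count. Their median log2 fold change was -1.07, beside 0.015 over all tested genes. DUSP4 fell furthest (5.36-fold), followed by SPRY2 (3.66-fold), SPRY4 (2.82-fold) and DUSP5 (2.73-fold). Without the first RSF1 library the counts were again 1 higher and 8 lower, and the log2 fold changes were 1.22 for DUSP1, -2.45 for DUSP4, -2.00 for SPRY2 and -0.46 for SPRED2.

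Most of the feedback genes were also lower with RSF1delUAB, set against the same control-vector libraries. DUSP1, DUSP4, DUSP5, SPRY2, SPRY4, SPRED2 and PHLDA1 fell, SPRED1 rose, and DUSP6 and SPRY1 did not pass. This makes 7 members lower and 1 higher, where 66.6% of all tested genes were called either way, 34.5% higher and 32.1% lower. The median over the members was -0.44, beside 0.015 over all tested genes. Both SKOV3 comparisons with control vector share 3 control libraries, so their values are given side by side and no agreement between them is counted.

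Set directly against RSF1, RSF1delUAB cells had higher SPRY1, SPRY2 and SPRY4, by 2.44-, 2.53- and 1.83-fold, and 2.98-fold lower DUSP1. SPRED1, DUSP6 and SPRED2 were higher by smaller amounts, and DUSP4, DUSP5 and PHLDA1 did not pass. Thus 6 members were higher and 1 was lower, where 38.6% of all tested genes were called either way, 20.2% higher and 18.5% lower. The median over the members was 0.29, beside -0.0017 over all tested genes. Over 17 other fits 3 to 6 members were higher, beside 705 to 3707 of all tested genes, both lowest with a tested fold of 1.5. DUSP6 kept its call in 7 of these fits and SPRED2 in 3. With the replicate number as a block 5 members were higher, SPRED2 being lost (edgeR adjusted p = 0.0550). It was also lost without the first RSF1 library, where DUSP1 was at -1.55, SPRY1 at 1.19, SPRY2 at 1.47 and SPRY4 at 0.78. The RSF1 libraries enter this comparison and RSF1 against control vector with opposite sign. Whatever is particular to these libraries moves both, so opposite directions in them are not separate observations.

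In OVCAR3 cells with the UAB peptide, DUSP5, PHLDA1, DUSP1, SPRY4 and DUSP6 fell and DUSP4 and SPRY2 rose, while SPRY1, SPRED1 and SPRED2 did not pass. So 5 of 10 members were lower and 2 higher, where 10.9% of 18359 tested genes were called either way, 5.45% higher and 5.46% lower. The median over the members was -0.60, beside 0.0089 over all tested genes. The 2 UAB-peptide libraries and the 2 scrambled-peptide libraries did not overlap for any of the 10 members, including the 3 that did not pass. The share of all tested genes without overlap was not counted. With 2 libraries per group, genes can separate without any change, so the lack of overlap adds nothing to the calls. The fit had 2 residual degrees of freedom, and the calls of DUSP6 and SPRY4 were lost in other fits. With DESeq2 and with library totals as the only scaling, 3 members were lower, beside 922 and 855 of all tested genes.

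**Figure D1:**
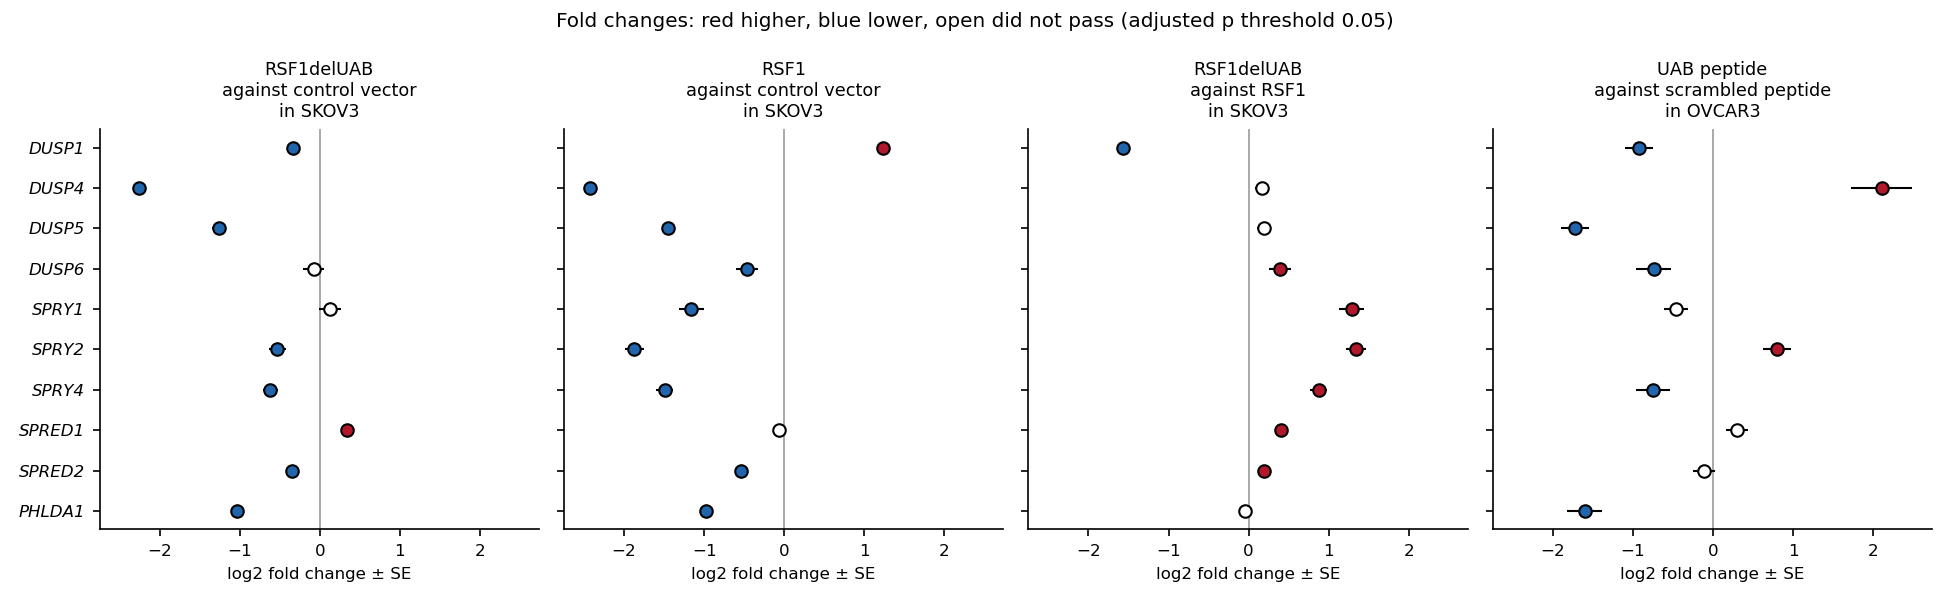
Log2 fold change (x axis) of each feedback gene (rows) in the 4 comparisons, with horizontal bars for the SE; red points were higher, blue points lower and open points did not pass an edgeR adjusted p of 0.05. DUSP1 lies at 1.24 in RSF1 against control vector and at -1.57 in RSF1delUAB against RSF1, opposite in each case to most other members. Both of these comparisons use the RSF1 libraries, with opposite sign. DUSP4 lies at -2.26 and -2.42 against control vector in SKOV3 and at 2.10 in OVCAR3.

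Levels per library are given below as CPM, counts scaled to a common library total after adjustment by the trimmed mean of M-values (TMM) within each line. They compare libraries of one line and not genes with each other. Gene positions are those of GENCODE 29 on GRCh38.

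DUSP1 (ENSG00000120129, chr5:172768096-172771195, minus strand) encodes a nuclear phosphatase that acts on ERK, p38 and JNK and is known as an early stress and mitogen response gene. Its level was 36.0, 35.3 and 34.5 CPM in the 3 RSF1delUAB libraries, 107, 99.97 and 108 CPM in the RSF1 libraries and 43.9, 44.7 and 45.1 CPM in the control-vector libraries. The 3 groups did not overlap: RSF1 libraries were highest and RSF1delUAB libraries lowest. DUSP1 rose 2.36-fold with RSF1 against control vector (log2 fold change 1.24, SE 0.069, edgeR adjusted p = 3.61e-12). With RSF1delUAB it fell slightly against control vector (log2 fold change -0.34, SE 0.071, edgeR adjusted p = 0.000340). The direct contrast of RSF1delUAB with RSF1 was the largest fall of any member there (log2 fold change -1.57, SE 0.07, edgeR adjusted p = 5.13e-13), and 2.65% of all tested genes had a log2 fold change at least as low. In OVCAR3 its level was 14.4 and 13.4 CPM with the UAB peptide and 23.0 and 29.7 CPM with the scrambled peptide, without overlap, a 1.90-fold fall (log2 fold change -0.92, SE 0.17, edgeR adjusted p = 0.00286).

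DUSP4 (ENSG00000120875, chr8:29333064-29350684, minus strand) encodes a nuclear phosphatase of ERK and JNK that is itself induced by ERK. It stood at 23.5, 25.8 and 24.9 CPM with RSF1delUAB, 22.9, 20.7 and 22.7 CPM with RSF1 and 115, 125 and 115 CPM with control vector. Every library with either construct was far below every control-vector library, and the ranges of the constructs lay next to each other. Against control vector the fall was 4.79-fold with RSF1delUAB (log2 fold change -2.26, SE 0.077, edgeR adjusted p = 1.47e-15) and 5.36-fold with RSF1 (log2 fold change -2.42, SE 0.079, edgeR adjusted p = 7.40e-16). Of all tested genes, 2.23% and 1.55% had a log2 fold change at least as low in these comparisons. Between RSF1delUAB and RSF1 the difference did not pass (log2 fold change 0.16, SE 0.083, edgeR adjusted p = 0.133). In OVCAR3 the gene was scarce, with 61 and 92 counts in the UAB-peptide libraries and 19 and 24 counts in the scrambled-peptide libraries. That is 2.99 and 5.02 CPM against 0.812 and 1.04 CPM, and DUSP4 was 4.30-fold higher with the peptide (log2 fold change 2.10, SE 0.38, edgeR adjusted p = 0.00234).

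DUSP5 (ENSG00000138166, chr10:110497907-110511533, plus strand) encodes a nuclear phosphatase specific for ERK. Levels were 24.9, 21.8 and 22.8 CPM with RSF1delUAB, 20.4, 20.3 and 20.4 CPM with RSF1 and 57.8, 53.4 and 55.8 CPM with control vector. As with DUSP4, all libraries of both constructs lay below the control-vector libraries. The fall was 2.40-fold with RSF1delUAB (log2 fold change -1.26, SE 0.08, edgeR adjusted p = 2.64e-11) and 2.73-fold with RSF1 (log2 fold change -1.45, SE 0.082, edgeR adjusted p = 4.67e-12), and the constructs did not differ past the threshold, although their libraries did not overlap (log2 fold change 0.19, SE 0.086, edgeR adjusted p = 0.0943). In OVCAR3 DUSP5 had 12.3 and 13.1 CPM with the UAB peptide and 36.0 and 47.8 CPM with the scrambled peptide. This 3.30-fold fall had the smallest adjusted p among the members in OVCAR3 (log2 fold change -1.72, SE 0.17, edgeR adjusted p = 1.63e-05), and 1.41% of tested genes were at least as low.

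DUSP6 (ENSG00000139318, chr12:89347235-89352501, minus strand) encodes the cytoplasmic ERK phosphatase that is most often used as a marker of ERK output. In SKOV3 it was at 8.19, 7.74 and 9.30 CPM with RSF1delUAB, 6.91, 6.16 and 6.16 CPM with RSF1 and 8.40, 8.49 and 9.69 CPM with control vector. The RSF1delUAB and control-vector ranges overlapped, and the RSF1 libraries lay below both. DUSP6 fell 1.38-fold with RSF1 (log2 fold change -0.47, SE 0.14, edgeR adjusted p = 0.00581), a call that was lost once the change of neighbouring genes was subtracted, as given below. RSF1delUAB did not differ from control vector past the threshold (log2 fold change -0.08, SE 0.13, edgeR adjusted p = 0.620). It was 1.31-fold above RSF1 (log2 fold change 0.39, SE 0.14, edgeR adjusted p = 0.0308), which passed in 7 of 17 other fits (adjusted p 0.0216 to 1 in edgeR and the other tools). In OVCAR3 levels were 5.39 and 6.00 CPM with the UAB peptide and 10.8 and 8.21 CPM with the scrambled peptide (log2 fold change -0.74, SE 0.22, edgeR adjusted p = 0.0437), without overlap. That call was lost with DESeq2 (DESeq2 adjusted p = 0.0745). The log2 fold change was -0.53 without the first scrambled-peptide library and -0.66 without the first UAB-peptide library. Over 15 other fits the adjusted p ran from 0.0023 to 0.811 in edgeR and the other tools, the highest with a tested fold of 1.5.

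**Figure D2:**
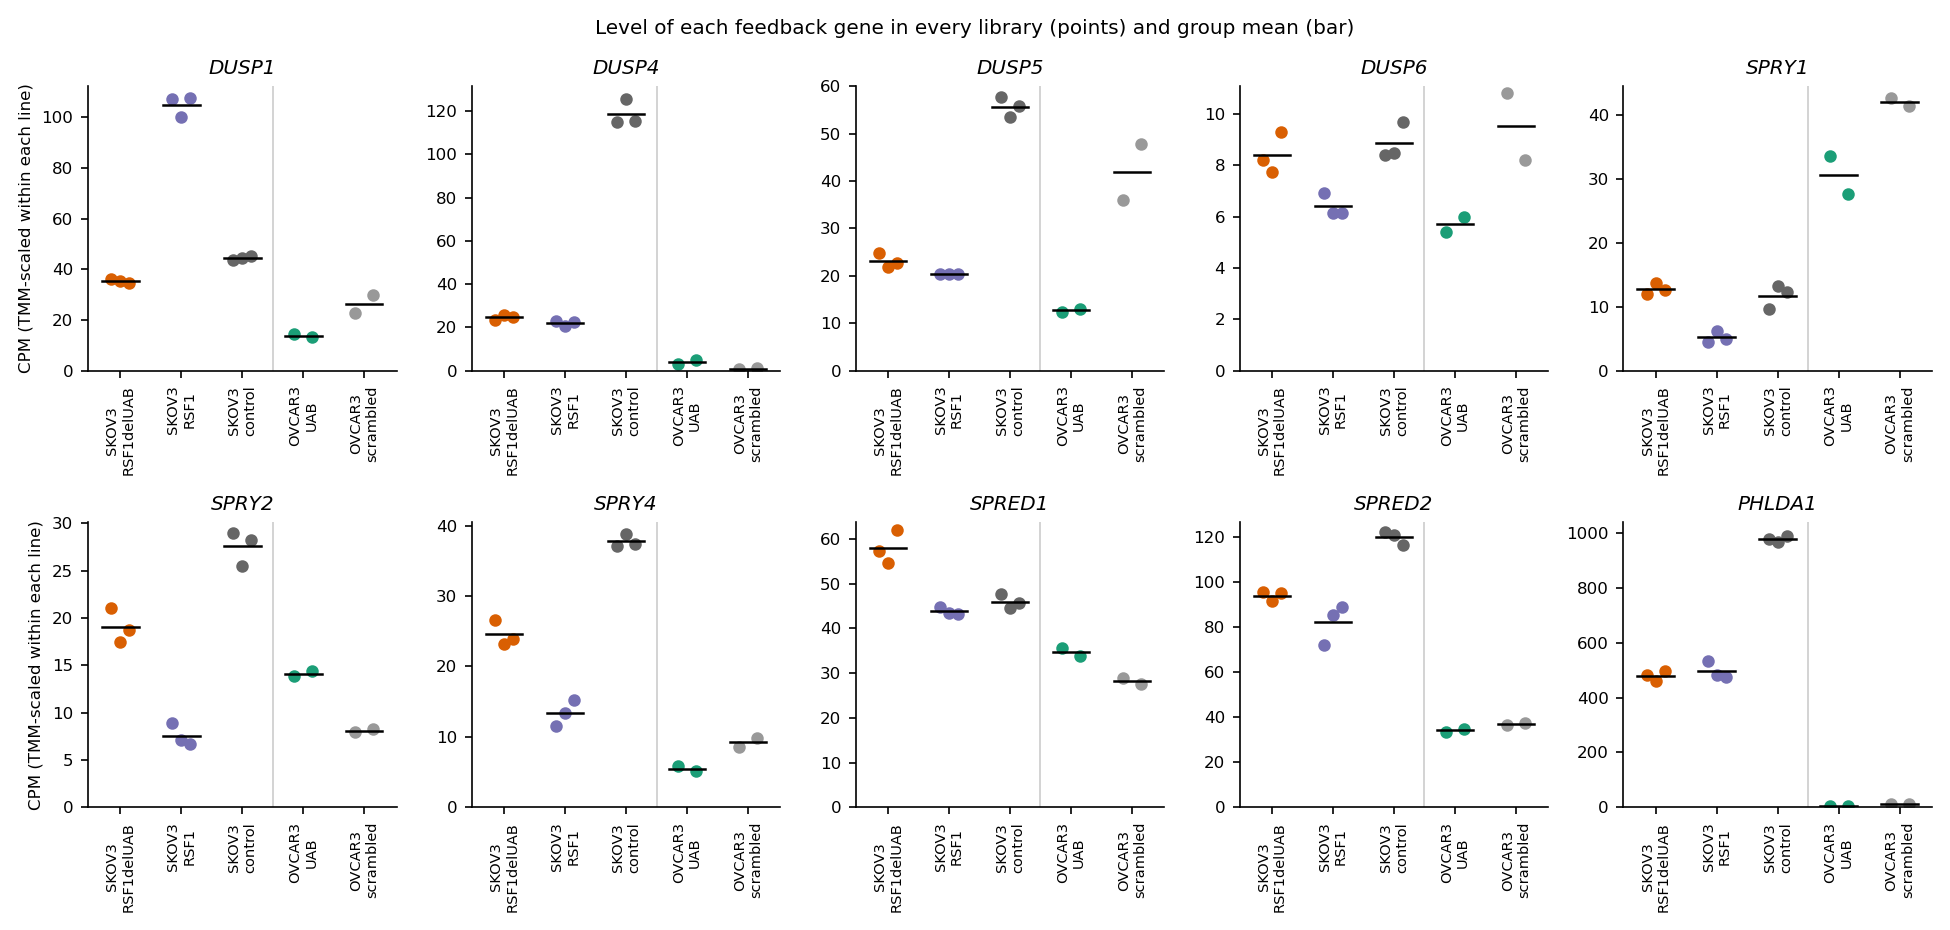
Level of each feedback gene in every library (points) with the group mean (bar), in TMM-scaled CPM on linear axes from 0, for RSF1delUAB, RSF1 and control vector in SKOV3 and for UAB and scrambled peptide in OVCAR3; each panel has its own scale and the line left of OVCAR3 separates tables scaled apart. DUSP4, DUSP5 and PHLDA1 are low with both constructs, the 3 Sprouty genes are lowest with RSF1, and DUSP1 is highest with RSF1.

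SPRY1 (ENSG00000164056, chr4:123396795-123403760, plus strand) encodes a Sprouty protein, an inhibitor of signalling from FGF and other receptors to RAS and ERK. In SKOV3 it had 12.1, 13.7 and 12.6 CPM with RSF1delUAB, 4.50, 6.29 and 4.97 CPM with RSF1 and 9.66, 13.3 and 12.3 CPM with control vector. The RSF1delUAB and control-vector ranges overlapped, and all RSF1 libraries were lower. SPRY1 fell 2.24-fold with RSF1 (log2 fold change -1.16, SE 0.15, edgeR adjusted p = 1.42e-06), whereas RSF1delUAB did not differ from control vector past the threshold (log2 fold change 0.12, SE 0.14, edgeR adjusted p = 0.441). Between the constructs it was 2.44-fold higher with RSF1delUAB (log2 fold change 1.28, SE 0.15, edgeR adjusted p = 1.05e-06). In OVCAR3 it had 33.6 and 27.6 CPM with the UAB peptide and 42.6 and 41.4 CPM with the scrambled peptide, without overlap, and did not pass (log2 fold change -0.46, SE 0.15, edgeR adjusted p = 0.0640). Without the first UAB-peptide library its log2 fold change was -0.60. Over 15 other fits the adjusted p ran from 0.000267 to 1 in edgeR and the other tools. The lowest came from an edgeR block with crossed replicate numbers, chosen after seeing the data.

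SPRY2 (ENSG00000136158, chr13:80335976-80341126, minus strand) encodes the most studied Sprouty, which acts at several steps between receptor and RAF. Its level was 21.1, 17.4 and 18.7 CPM with RSF1delUAB, 8.87, 7.11 and 6.66 CPM with RSF1 and 28.98, 25.5 and 28.3 CPM with control vector. The groups did not overlap, and RSF1delUAB lay between the other two. The fall against control vector was 1.45-fold with RSF1delUAB (log2 fold change -0.53, SE 0.11, edgeR adjusted p = 0.000212) and 3.66-fold with RSF1 (log2 fold change -1.87, SE 0.12, edgeR adjusted p = 3.67e-11). The constructs differed 2.53-fold, RSF1delUAB being higher (log2 fold change 1.34, SE 0.12, edgeR adjusted p = 3.26e-08). In OVCAR3 SPRY2 had 13.8 and 14.4 CPM with the UAB peptide and 7.95 and 8.25 CPM with the scrambled peptide, a 1.74-fold rise (log2 fold change 0.80, SE 0.18, edgeR adjusted p = 0.0104).

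SPRY4 (ENSG00000187678, chr5:142310427-142326455, minus strand) encodes a Sprouty whose transcript is widely used as an ERK readout. It had 26.5, 23.2 and 23.9 CPM with RSF1delUAB, 11.6, 13.3 and 15.2 CPM with RSF1 and 37.1, 38.8 and 37.4 CPM with control vector. As for SPRY2, the groups did not overlap and RSF1delUAB was intermediate. SPRY4 fell 1.54-fold with RSF1delUAB (log2 fold change -0.62, SE 0.095, edgeR adjusted p = 8.81e-06) and 2.82-fold with RSF1 (log2 fold change -1.49, SE 0.10, edgeR adjusted p = 8.04e-11), and was 1.83-fold higher with RSF1delUAB than with RSF1 (log2 fold change 0.87, SE 0.10, edgeR adjusted p = 1.06e-06). In OVCAR3 its level was 5.88 and 5.08 CPM with the UAB peptide and 8.59 and 9.89 CPM with the scrambled peptide (log2 fold change -0.75, SE 0.21, edgeR adjusted p = 0.0352). This call was lost with DESeq2 (DESeq2 adjusted p = 0.0612). Without the second scrambled-peptide library or the second UAB-peptide library the log2 fold change was -0.65 in each case. Over 15 other fits the adjusted p ran from 0.00181 to 0.758 in edgeR and the other tools, the highest with a tested fold of 1.5. The antisense gene SPRY4-AS1 overlaps SPRY4 and had 267 reads in all SKOV3 libraries, beside 3642 for SPRY4; since use of strand in the counting is not given, reads of such pairs cannot be told apart. Genes overlapping the other members had at most 41 reads in either line.

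SPRED1 (ENSG00000166068, chr15:38252836-38357249, plus strand) encodes a Sprouty-related protein that brings the RAS inhibitor neurofibromin to the membrane. Its level was 57.4, 54.7 and 62.0 CPM with RSF1delUAB, 44.9, 43.4 and 43.3 CPM with RSF1 and 47.6, 44.5 and 45.6 CPM with control vector. RSF1 and control-vector ranges overlapped, and the RSF1delUAB libraries were above both. SPRED1 rose 1.26-fold with RSF1delUAB against control vector (log2 fold change 0.34, SE 0.074, edgeR adjusted p = 0.000439) and did not pass with RSF1 (log2 fold change -0.07, SE 0.075, edgeR adjusted p = 0.448). It was 1.32-fold higher with RSF1delUAB than with RSF1 (log2 fold change 0.40, SE 0.074, edgeR adjusted p = 0.000188). In OVCAR3 it had 35.5 and 33.9 CPM with the UAB peptide and 28.9 and 27.5 CPM with the scrambled peptide, without overlap, and did not pass (log2 fold change 0.30, SE 0.14, edgeR adjusted p = 0.209).

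SPRED2 (ENSG00000198369, chr2:65310851-65432637, minus strand), a close relative with the same kind of action, had 95.3, 91.4 and 95.04 CPM with RSF1delUAB, 72.0, 85.3 and 88.8 CPM with RSF1 and 122, 121 and 116 CPM with control vector. Control-vector libraries were highest, and the first RSF1 library was the lowest of all. SPRED2 fell 1.27-fold with RSF1delUAB (log2 fold change -0.35, SE 0.074, edgeR adjusted p = 0.000354) and 1.46-fold with RSF1 (log2 fold change -0.54, SE 0.075, edgeR adjusted p = 2.30e-06). The 1.14-fold difference between RSF1delUAB and RSF1 (log2 fold change 0.19, SE 0.075, edgeR adjusted p = 0.0467) passed in 3 of 17 other fits (adjusted p 0.0148 to 1), and without the first RSF1 library the log2 fold change was 0.11 (edgeR adjusted p = 0.143). In OVCAR3 SPRED2 had 33.5 and 34.9 CPM with the UAB peptide and 36.4 and 37.4 CPM with the scrambled peptide and did not pass (log2 fold change -0.11, SE 0.14, edgeR adjusted p = 0.683).

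PHLDA1 (ENSG00000139289, chr12:76025447-76031776, minus strand) encodes a pleckstrin-homology-like protein that is induced through ERK and dampens signalling from several receptor kinases. It had the highest level per length of the members in SKOV3, as given below, with 482, 459.9 and 497 CPM with RSF1delUAB, 534, 481 and 474 CPM with RSF1 and 978, 968 and 989 CPM with control vector. Libraries of the constructs overlapped each other and lay well below all control-vector libraries. The fall was 2.04-fold with RSF1delUAB (log2 fold change -1.03, SE 0.061, edgeR adjusted p = 8.71e-12) and 1.97-fold with RSF1 (log2 fold change -0.98, SE 0.061, edgeR adjusted p = 1.86e-11), and the constructs did not differ past the threshold (log2 fold change -0.05, SE 0.06, edgeR adjusted p = 0.561). In OVCAR3 PHLDA1 was scarce, at 4.22 and 3.27 CPM with the UAB peptide and 10.7 and 12.2 CPM with the scrambled peptide, a 3.04-fold fall (log2 fold change -1.61, SE 0.22, edgeR adjusted p = 0.000316).

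The largest differences between the constructs were thus in DUSP1 and the 3 Sprouty genes. DUSP4, DUSP5, SPRY2, SPRY4, SPRED2 and PHLDA1 were lower than control vector with each construct. Across these groups the receptor kinase ERBB2, which feeds the pathway, also moved: it was at 2741 to 2959 TPM with RSF1delUAB, 765 to 1080 TPM with RSF1 and 3040.1 to 3295 TPM with control vector, and its part in the members' levels was not tested. Its log2 fold change was -1.76 for RSF1 against control vector (edgeR adjusted p = 4.39e-14) and 1.60 for RSF1delUAB against RSF1 (edgeR adjusted p = 8.78e-13). For RSF1delUAB against control vector it did not pass (log2 fold change -0.16, edgeR adjusted p = 0.0619). In OVCAR3 it did not pass either (-0.15, edgeR adjusted p = 0.506).

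Some members lie in stretches of the genome where the median change of the tested genes was away from 0 in SKOV3, so each fold change was set beside the median of the other tested genes within 10 Mb. For DUSP1, DUSP4 and SPRY4 the neighbours' medians were near that of all tested genes, at 0.11, 0.02 and -0.02 with RSF1delUAB and 0.07, 0.0018 and -0.02 with RSF1; a median near 0 does not show that single neighbours were unchanged. Around SPRY2 the median was -0.69 with RSF1delUAB and -0.70 with RSF1, over 29 genes. With this median taken as an offset, SPRY2 still fell with RSF1 (log2 fold change -1.17, edgeR adjusted p = 6.39e-08), but with RSF1delUAB the sign turned to 0.15 and the call was lost (edgeR adjusted p = 0.223). Around SPRY1 the medians were -0.65 with RSF1delUAB and -0.62 with RSF1. After the offset the log2 fold change of SPRY1 was 0.78 with RSF1delUAB, which now passed (edgeR adjusted p = 5.90e-05), and -0.54 with RSF1 (edgeR adjusted p = 0.00482). DUSP6 moved as its neighbours did, whose median was -0.49 with RSF1, and after the offset its change was 0.020 (edgeR adjusted p = 0.913). SPRED2 fell in surroundings that were higher, at 0.30 with RSF1delUAB and 0.29 with RSF1. PHLDA1 had neighbours' medians of -0.47 with RSF1delUAB and -0.31 with RSF1. After the offset its log2 fold change against control vector was -0.55 with RSF1delUAB and -0.67 with RSF1, and both calls were kept. Between the constructs the neighbours' median was -0.26, and after the offset PHLDA1 was 0.21 log2 units higher with RSF1delUAB than with RSF1 (edgeR adjusted p = 0.00932). Over the 17 other fits of each, the adjusted p ran from 1.41e-06 to 0.790 for SPRY2 and from 5.90e-05 to 1 for SPRY1 with RSF1delUAB, from 0.00381 to 0.947 for DUSP6 with RSF1, and from 0.00932 to 1 for PHLDA1 between the constructs. In OVCAR3 the medians around the members ranged from -0.11 to 0.15.

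**Figure D3:**
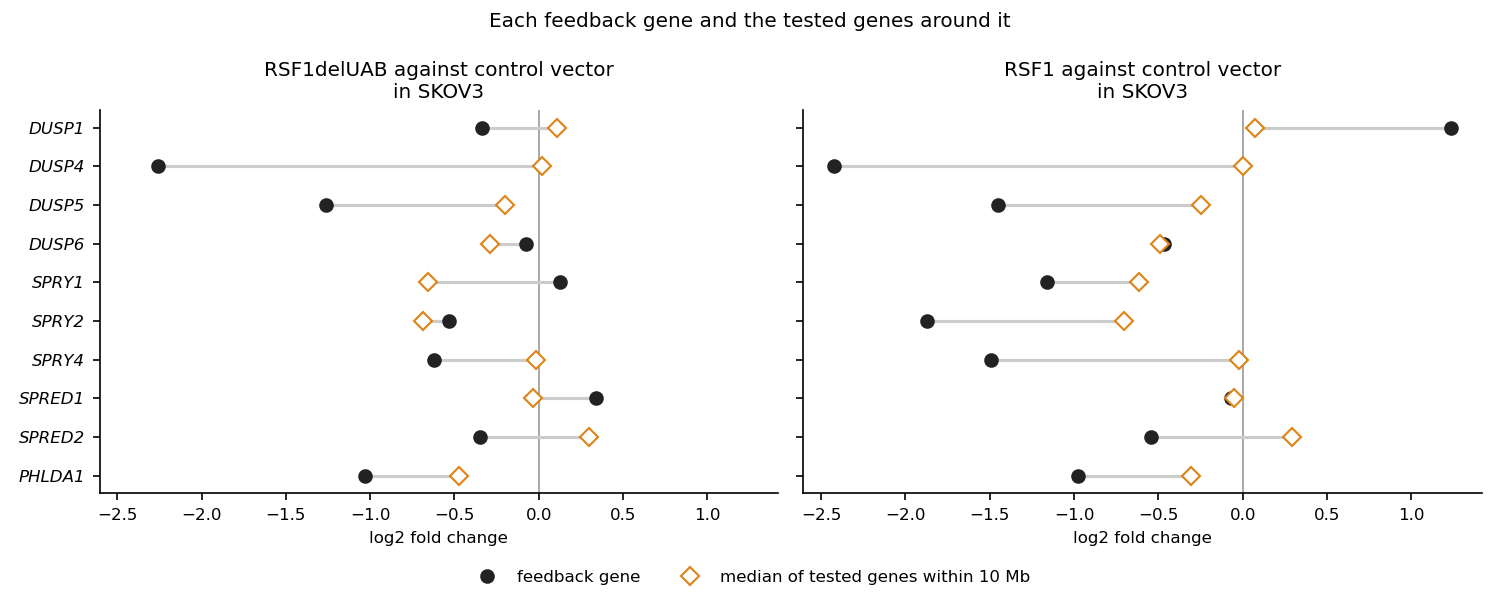
Log2 fold change of each feedback gene (filled circles) and the median over the other tested genes within 10 Mb (open diamonds), for RSF1delUAB and RSF1 against control vector in SKOV3, which share their control libraries. The diamonds of SPRY1 and SPRY2 lie between -0.70 and -0.62, and those of DUSP4 and SPRY4 lie near 0.

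Per length, the lines differed widely in which brakes they carried. In SKOV3 control-vector libraries PHLDA1 led at 647 ± 7.94 TPM, followed by DUSP1 (86.5 ± 0.990 TPM), DUSP5 (85.9 ± 3.65 TPM) and SPRED2 (85.0 ± 2.33 TPM), the last 3 of which overlapped in range (SD, n = 3). DUSP4 came next at 63.7 ± 3.00 TPM, then SPRY2 (33.6 ± 2.31 TPM), SPRED1 (23.2 ± 0.895 TPM) and SPRY4 (22.5 ± 0.467 TPM), and lowest were SPRY1 (11.6 ± 1.81 TPM) and DUSP6 (8.98 ± 0.720 TPM). In OVCAR3 scrambled-peptide libraries the order was DUSP5 (54.3 ± 12.4 TPM), DUSP1 (42.9 ± 9.03 TPM), SPRY1 (34.7 ± 0.350 TPM), SPRED2 (22.0 ± 1.10 TPM) and SPRED1 (11.9 ± 0.0656 TPM; SD, n = 2). SPRY2 (8.26 ± 0.465 TPM), DUSP6 (8.05 ± 1.32 TPM), PHLDA1 (6.34 ± 0.777 TPM) and SPRY4 (4.63 ± 0.599 TPM) followed, and DUSP4 was last at 0.417 ± 0.0841 TPM. SPRED1 overlapped SPRY4 and SPRY1 overlapped DUSP6 in SKOV3; in OVCAR3 DUSP5 overlapped DUSP1 and SPRY2 overlapped DUSP6. In SKOV3 control-vector libraries the level was 153 times that in OVCAR3 scrambled-peptide libraries for DUSP4 and 102 times for PHLDA1, while for SPRY1 the ratio was 0.334. DUSP6 overlapped between the lines (ratio 1.12). The lines differ in vector, doxycycline and count table, so these ratios are levels side by side with no test. The summed level of the 10 members was 565 to 603 TPM with RSF1delUAB, 669 to 688 TPM with RSF1 and 1058 to 1073 TPM with control vector, with PHLDA1 as the largest part. In OVCAR3 it was 129 to 143 TPM with the UAB peptide and 177 to 210.1 TPM with the scrambled peptide.

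**Figure D4:**
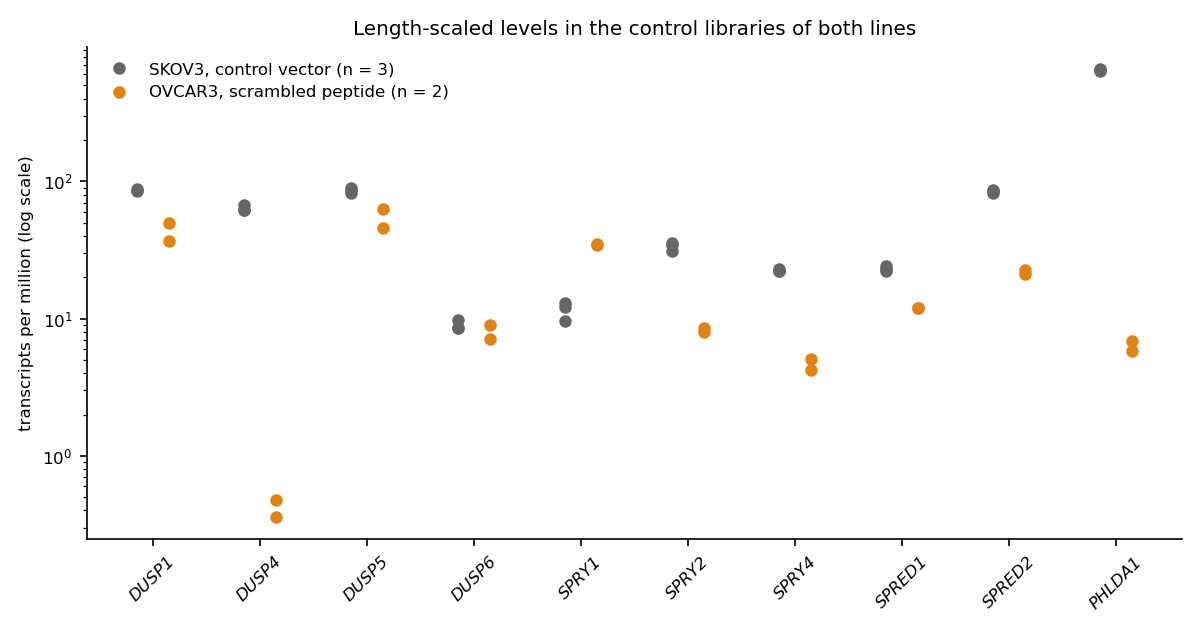
TPM on a log scale (y axis) of each feedback gene (x axis) in the 3 SKOV3 control-vector libraries and the 2 OVCAR3 scrambled-peptide libraries, 1 point per library. DUSP4 and PHLDA1 differ most between the lines, at 63.7 and 647 TPM in SKOV3 against 0.417 and 6.34 TPM in OVCAR3, SPRY1 is the only member higher in OVCAR3, and DUSP6 overlaps.

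Genes around these brakes were read from 7 further lists, each given with its own count of calls and its median log2 fold change. Over all tested genes that median was 0.015 in both comparisons with control vector, -0.0017 in RSF1delUAB against RSF1 and 0.0089 with the UAB peptide, and no list was tested as a set. Of all tested genes, 34.5% were higher and 32.1% lower with RSF1delUAB against control vector, 34.3% and 32.9% with RSF1 against control vector, 20.2% and 18.5% in RSF1delUAB against RSF1, and 5.45% and 5.46% with the UAB peptide; each list's counts are to be read beside these shares. The RSF1 values of these lists include the first RSF1 library. Among ligands of the EGF and FGF receptors, 2 of 13 tested were higher and 10 lower with RSF1delUAB, and 4 were higher and 9 lower with RSF1, both against control vector. FGF2, a growth factor for FGF receptors, was at 139 ± 3.13 CPM with RSF1delUAB, 181 ± 11.4 CPM with RSF1 and 539 ± 29.3 CPM with control vector. FGFBP1, a carrier that releases FGFs, fell with both constructs (log2 fold change -3.48 with RSF1delUAB and -3.65 with RSF1). Neighbours' medians with RSF1delUAB and RSF1 were -0.65 and -0.68 for FGF2, and -0.54 and -0.34 for FGFBP1. Of the ligands that were higher, FGF5 changed by 0.44 with RSF1delUAB and 1.79 with RSF1, and NRG1 by 0.30 with RSF1delUAB and 0.73 with RSF1. EREG, an EGF receptor ligand, was at 0.167 ± 0.102 CPM with RSF1delUAB, 19.95 ± 0.712 CPM with RSF1 and 1.46 ± 0.472 CPM with control vector, so RSF1 libraries were highest and RSF1delUAB libraries lowest. In RSF1delUAB against RSF1, 1 ligand was higher (FGF18, 1.11) and 8 lower, with EREG at -6.80 and FGF5 at -1.35. With the UAB peptide, 2 of 11 were higher (NRG1 0.95 and BTC 0.48) and 1 lower (TGFA -0.73). Medians of the ligand list were -1.77 with RSF1delUAB and -0.96 with RSF1 against control vector, -0.43 in RSF1delUAB against RSF1 and -0.04 with the UAB peptide.

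In the cascade from receptor to kinase, 23 genes were tested. With RSF1delUAB 3 were higher and 12 lower, and with RSF1 3 were higher and 14 lower, beside 34.5% higher and 32.1% lower of all genes with RSF1delUAB and 34.3% and 32.9% with RSF1. MAPK3, which encodes an ERK kinase, rose with both constructs, by 0.88 log2 units with RSF1delUAB and 0.57 with RSF1. MAP2K1, which encodes a MEK kinase, and RPS6KA1, an ERK substrate kinase, were lower with both constructs, at -0.88 and -0.78 with RSF1delUAB and -0.73 and -0.97 with RSF1. PTPN11, the phosphatase SHP2, was at -0.85 with RSF1delUAB and -1.11 with RSF1, beside ERBB2 as given above. Neighbours of PTPN11 had medians of -0.22 with RSF1delUAB and -0.65 with RSF1. In RSF1delUAB against RSF1, 10 were higher, among them ERBB2, and 2 were lower, RPS6KA2 (-2.36) and MAP2K2 (-0.22). With the UAB peptide 1 was higher, EGFR at 149.6 ± 28.7 CPM with the UAB peptide and 77.8 ± 28.3 CPM with the scrambled peptide, and 1 was lower, RPS6KA1 (-0.48). For the cascade list, the median was -0.24 with RSF1delUAB and -0.35 with RSF1 against control vector, 0.13 in RSF1delUAB against RSF1 and -0.04 with the UAB peptide.

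Transcripts known to follow ERK activity, other than the members, did not move as one. With RSF1delUAB 2 of 13 tested were higher and 9 lower, and with RSF1 5 were higher and 7 lower. EPHA2, a receptor kinase, was at 129 ± 2.68 CPM with RSF1delUAB, 177 ± 8.87 CPM with RSF1 and 873 ± 29.8 CPM with control vector. FOSL1 was lower with both constructs (log2 fold change -2.67 with RSF1delUAB and -1.54 with RSF1), as was CCND1, the cyclin D1 gene (-1.59 with RSF1delUAB and -1.85 with RSF1). The early response gene EGR1 was higher instead, and stood at 161 ± 3.20 CPM with RSF1delUAB, 36.9 ± 3.18 CPM with RSF1 and 13.9 ± 1.14 CPM with control vector. FOS was at 44.1 ± 1.06 CPM with RSF1delUAB, 4.35 ± 0.947 CPM with RSF1 and 6.196 ± 0.550 CPM with control vector, so it rose with RSF1delUAB (2.83) and fell with RSF1 (-0.51). MYC rose with RSF1 (0.82) and did not pass with RSF1delUAB (-0.10). In RSF1delUAB against RSF1, 5 were higher and 7 lower, with EGR1 at 2.12 and FOS at 3.34 against LIF at -1.19 and FOSL1 at -1.13. In OVCAR3 1 of 15 was higher with the UAB peptide, EPHA4 (0.80), and 5 were lower, led by FOS (-1.80) and IER3 (-1.26). The median of the list of ERK-following transcripts was -0.44 with RSF1delUAB and -0.34 with RSF1 against control vector, -0.46 in RSF1delUAB against RSF1 and -0.40 with the UAB peptide.

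Of the 6 MAPK phosphatases that are not members, with RSF1delUAB 3 were higher and 2 lower, and with RSF1 2 were higher and 2 lower, counts to be set beside the shares over all genes given above. DUSP7, an ERK phosphatase, was at 24.3 ± 1.19 CPM with RSF1delUAB, 27.3 ± 2.95 CPM with RSF1 and 91.1 ± 2.86 CPM with control vector. DUSP10, which acts on p38 and JNK, was at 74.3 ± 2.49 CPM with RSF1delUAB, 59.5 ± 1.05 CPM with RSF1 and 169 ± 2.33 CPM with control vector. Neighbours' medians with RSF1delUAB and RSF1 were -0.56 and -0.56 for DUSP7, and -0.51 and -0.53 for DUSP10. DUSP8 and DUSP9 were higher, by 0.97 and 1.72 log2 units with RSF1delUAB and 1.24 and 0.87 with RSF1. In RSF1delUAB against RSF1, 2 were higher (DUSP10 0.32 and DUSP9 0.85) and none was lower in the edgeR test. With the UAB peptide 3 were lower and none higher; DUSP2, a nuclear phosphatase of ERK and p38, had 4.50 ± 2.28 CPM with the UAB peptide and 19.2 ± 1.22 CPM with the scrambled peptide, and DUSP8 was at -0.70. Medians of the list of other phosphatases were 0.47 with RSF1delUAB and 0.40 with RSF1 against control vector, 0.08 in RSF1delUAB against RSF1 and -0.47 with the UAB peptide.

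Of 4 relatives, SPRY3, SPRED3, PHLDA2 and PHLDA3, 1 was higher and 2 lower with RSF1delUAB, and none was higher and 3 lower with RSF1. PHLDA2 was at 23.9 ± 2.08 CPM with RSF1delUAB, 18.3 ± 2.13 CPM with RSF1 and 99.0 ± 6.49 CPM with control vector. PHLDA3, a p53-induced inhibitor of AKT, was at -0.55 with RSF1delUAB and -1.14 with RSF1, where its neighbours' medians were -0.66 and -0.62. SPRED3 rose by 0.58 with RSF1delUAB and did not pass with RSF1 (-0.05). All 4 were higher in RSF1delUAB than in RSF1 in the edgeR test, among them SPRY3 at 5.78 ± 0.688 CPM with RSF1delUAB and 2.41 ± 0.904 CPM with RSF1. None of the 4 passed with the UAB peptide. For the list of relatives, the median was -0.20 with RSF1delUAB and -1.12 with RSF1 against control vector, 0.61 in RSF1delUAB against RSF1 and -0.27 with the UAB peptide.

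Other brakes on receptors and RAS, 14 in all, gave 6 higher and 5 lower with RSF1delUAB and 4 higher and 7 lower with RSF1, beside 34.5% higher and 32.1% lower of all genes with RSF1delUAB and 34.3% and 32.9% with RSF1. SOCS3, CBLB and TRIB1 rose with both constructs, by 1.57, 1.73 and 1.18 log2 units with RSF1delUAB and 0.77, 0.93 and 1.41 with RSF1; SOCS3 and CBLB inhibit cytokine and receptor kinase signalling. ERRFI1, an inhibitor of the EGF receptor family, was at 27.8 ± 0.937 CPM with RSF1delUAB, 57.3 ± 1.60 CPM with RSF1 and 100.4 ± 3.76 CPM with control vector. RASA1 was at -0.63 with RSF1delUAB and 0.14 with RSF1, where it did not pass, and PEBP1 at -0.28 with RSF1delUAB and -0.69 with RSF1, the second beside neighbours' medians of -0.28 with RSF1delUAB and -0.65 with RSF1. In RSF1delUAB against RSF1, 7 were higher (CBLB 0.80, SOCS3 0.80) and 3 lower (ERRFI1 -1.04, RASA1 -0.77). With the UAB peptide 1 was higher, CBLB (0.63), and 1 lower, SPSB1 (-0.56). The median of the list of other brakes was 0.02 with RSF1delUAB and -0.25 with RSF1 against control vector, 0.25 in RSF1delUAB against RSF1 and 0.10 with the UAB peptide.

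The p38 and JNK kinases and their activators, which several of the phosphatases act on, gave 4 of 13 higher and 4 lower with RSF1delUAB, and 4 higher and 6 lower with RSF1, beside 34.5% higher and 32.1% lower of all genes with RSF1delUAB and 34.3% and 32.9% with RSF1. MAPK11, a p38 kinase, was at 37.6 ± 0.321 CPM with RSF1delUAB, 34.3 ± 4.09 CPM with RSF1 and 2.65 ± 0.345 CPM with control vector. MAPK12, next to it in the genome, had 393 counts with RSF1delUAB and 347 with RSF1 against 2 with control vector, a ratio of 171 (95% counting interval 47.1 to 1420.0) with RSF1delUAB and 169 (46.3 to 1398) with RSF1. Neighbours of both had medians of 0.82 with RSF1delUAB and 0.90 with RSF1. MAP2K6, an activator of p38, was at 36.6 ± 0.808 CPM with RSF1delUAB, 10.1 ± 0.996 CPM with RSF1 and 33.9 ± 5.59 CPM with control vector, and it passed, as lower, with RSF1 but not with RSF1delUAB. MAPK8, the JNK1 gene, was lower with both (log2 fold change -0.68 with RSF1delUAB and -0.98 with RSF1), as was MAP2K3 (-0.83 with RSF1delUAB and -0.59 with RSF1). In RSF1delUAB against RSF1, 4 were higher (MAP2K6 1.85, MAP2K4 0.31) and 2 lower (MAP3K5 -0.70, MAP2K3 -0.24). In OVCAR3 MAP2K6 was higher with the UAB peptide (0.89), and MAP3K5 (-1.03) and MAPK12 (-0.65) were lower. Medians of the p38 and JNK list were 0.08 with RSF1delUAB and 0.04 with RSF1 against control vector, 0.10 in RSF1delUAB against RSF1 and -0.08 with the UAB peptide.

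**Figure D5:**
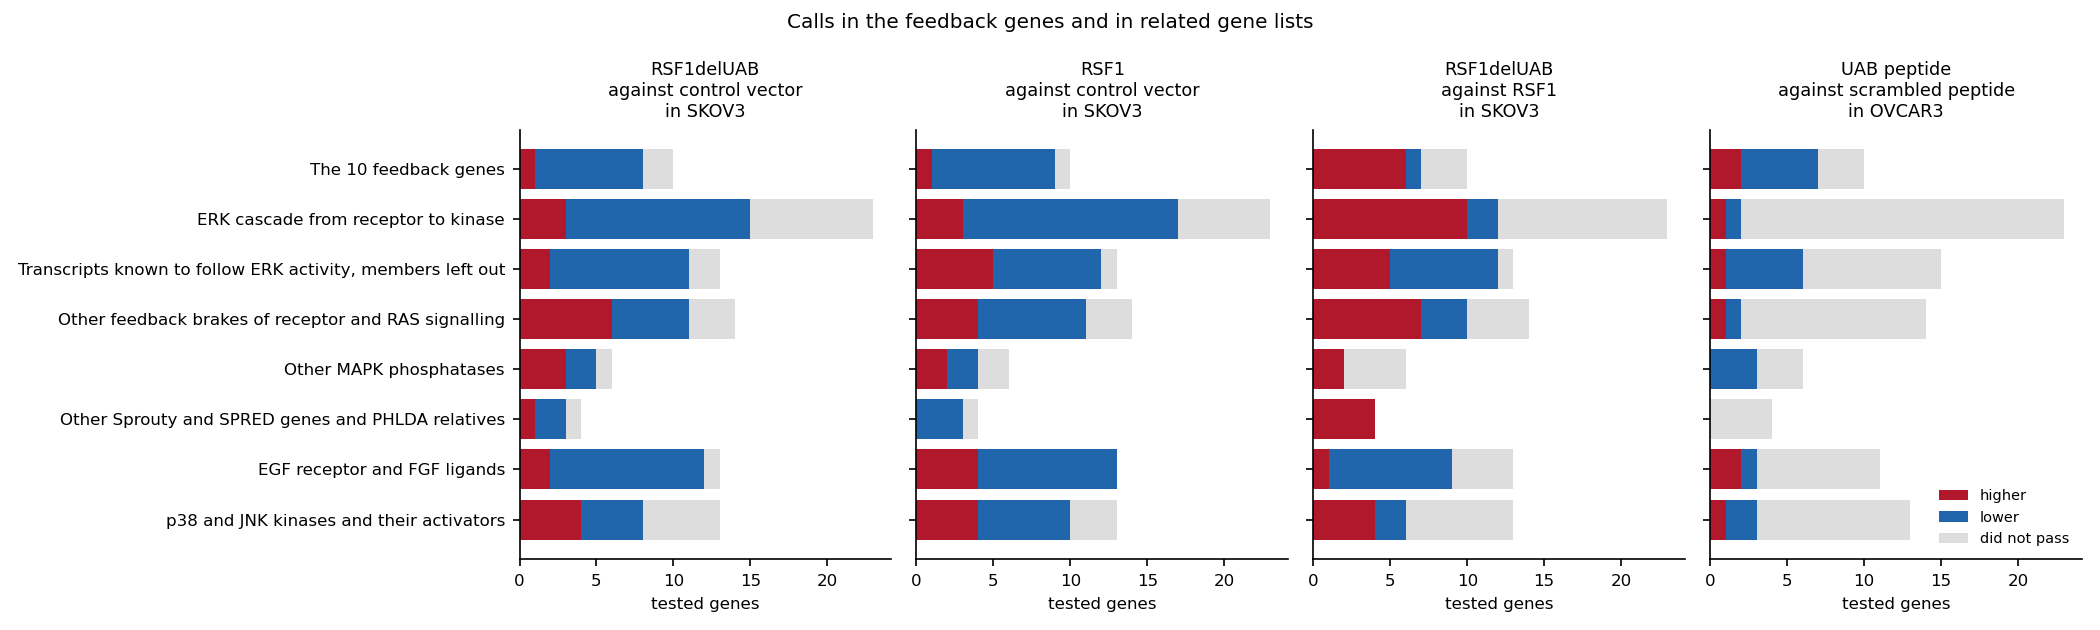
Number of tested genes (x axis) called higher (red), lower (blue) or not passed (grey) at an edgeR adjusted p of 0.05, for the 10 feedback genes and 7 related lists (rows) in the 4 comparisons (panels). The feedback genes are mostly lower against control vector (7 with RSF1delUAB and 8 with RSF1), where 32.1% and 32.9% of all tested genes are lower. In RSF1delUAB against RSF1, 6 are higher, where 20.2% of all tested genes are higher. Over 17 other fits this count of members ran from 3 to 6. In OVCAR3 2 of 23 genes of the cascade pass, beside 10.9% of all tested genes.

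The genes whose level across the 9 SKOV3 libraries was most like that of 5 members were looked up by Pearson's r of log2(CPM + 0.5) over 14624 genes with a mean of at least 1 CPM. They were NHERF2, MAPKAPK3 and KLHL21 for DUSP4 (r of 0.9985 to 0.9989), ABHD17B, CPT2 and SCD5 for DUSP6 (0.9679 to 0.9862), WNT7A, GXYLT2 and PANK2 for SPRY2 (0.9922 to 0.9939), RAB3D, KDM2B and MLXIP for SPRY4 (0.9937 to 0.9942) and PSMB4, ATP6V0B and SLC66A2 for PHLDA1 (0.9976 to 0.9983). The libraries fall into 3 groups, which any pair of genes that differs between groups shares, so these values describe the pattern and no test was made.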

How the data were processed

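Poly-A RNA was sequenced from 13 libraries. The authors deposited 1 table of raw read counts per gene for each line; per the submitters' processing notes, reads were handled with FastQC, STAR 2.7.9a and Subread, and builds named there include GRCh38. The strand setting of the counting is not given in the sources used here. RNA was extracted with TRIzol and reverse transcribed with random hexamers, per the labels' protocols. A single record that was spread over 3 lines was rejoined in both files.

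Counts were tested per line with edgeR 4.0.16 (R 4.3.3): genes kept by filterByExpr at a minimum count of 10, TMM scaling, glmQLFit over all groups of the line without a block, glmQLFTest, and Benjamini-Hochberg adjustment over all genes kept (16735 in SKOV3, 18359 in OVCAR3) with a threshold of 0.05. Levels are TMM-scaled CPM, and TPM uses the gene lengths in the tables. The main SKOV3 fit had 6 residual degrees of freedom and the OVCAR3 fit 2. Libraries held 15194678 to 24026993 counts; intervals cover counting error only.

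The members and lists were chosen with earlier results of these data known. All 10 members were named; of each further list, up to 2 genes called higher and 2 called lower with the smallest adjusted p in a comparison. Some genes that this rule names are not reported here. A change of neighbouring genes was taken as the median log2 fold change of other tested genes within 10 Mb. Motifs were searched in 250 bases before RefSeq starts. As alternatives, the fits were repeated with limma-voom (limma 3.58.1), with DESeq2 1.42.0, with other scalings, with no filter or a minimum count of 50, with a tested fold of 1.5, with only the groups compared, with the neighbours' median as an offset, with the replicate number as a block, and without each library in turn. Ranges over other fits include the tested fold of 1.5, which asks for a larger change. In OVCAR3 they also include a block with crossed replicate numbers, chosen after seeing the data. The edgeR test was checked on simulated counts for RSF1 against control vector and for the UAB peptide against the scrambled peptide. These used a single spread for all genes and only the groups compared. Simulated 1.5-fold changes were recovered in 67.2% of cases for RSF1 and 14.9% for the UAB peptide, and 2-fold changes in 82.1% and 71.6%. A gene that did not pass in OVCAR3 may thus have changed by such an amount.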

Additional observations from a re-analysis of the deposited data

How the results depend on the processing

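Of the results for single members under other settings, 604 kept their direction and side of the threshold, 46 lost and 4 gained a call, and 6 changed sign. The sign of SPRED1 with RSF1 against control vector changed under upper quartile scaling (0.015, edgeR adjusted p = 0.870). That of PHLDA1 in RSF1delUAB against RSF1 changed without RSF1 replicate 1 (0.0085, edgeR adjusted p = 0.907) and with the neighbours' offset (0.21). It was kept in 5 of 6 fits that left out 1 library, with -0.084 as the lowest value. With the neighbours' offset the sign also changed for DUSP6 with RSF1 (0.020) and RSF1delUAB (0.21, edgeR adjusted p = 0.182) and for SPRY2 with RSF1delUAB (0.15). The offset gave 2 members higher and 6 lower for RSF1delUAB against control vector, beside 5197 higher and 5102 lower of all tested genes. With RSF1 it gave 1 member higher and 7 lower, beside 5155 and 5131. In RSF1delUAB against RSF1 it gave 6 and 1, beside 3128 and 2913. For the UAB peptide it gave 2 and 4, beside 863 and 912. A tested fold of 1.5, which asks for a larger change by construction, gave for all genes 3009 higher and 2179 lower with RSF1delUAB, 3077 and 2278 with RSF1, 705 and 639 in RSF1delUAB against RSF1, and 266 and 289 with the UAB peptide. Under it 0 members were higher and 3 lower with RSF1delUAB against control vector, 3 were higher in RSF1delUAB against RSF1, and 1 was higher and 2 lower with the UAB peptide. Library totals and DESeq2 each gave 3 members lower with the UAB peptide, beside 855 and 922 of all tested genes lower. The cause was not tested.

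Without each SKOV3 library in turn, 5522 to 5900 of all tested genes were higher and 5152 to 5733 lower with RSF1 against control vector. With RSF1delUAB the ranges were 5445 to 5525 and 5010 to 5073, and in RSF1delUAB against RSF1 2848 to 3707 and 2577 to 3374. Beside these counts, leaving out each library in turn kept 1 member higher and 8 lower with RSF1 and 1 higher and 7 lower with RSF1delUAB against control vector. It gave 4 to 5 higher and 1 lower in RSF1delUAB against RSF1, and 2 higher and 4 to 5 lower with the UAB peptide. In OVCAR3 the count over all genes ranged from 633 (without scrambled-peptide replicate 1) to 1194 higher and from 707 to 1045 lower.

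Deviations of same-numbered SKOV3 libraries from their group means had r of -0.0622 to 0.0948, beside -0.0972 to 0.0468 for differently numbered ones. In OVCAR3 r was -0.224 for the same number and 0.224 otherwise. With 2 libraries per group these 2 values mirror each other by construction. The values show no clear pairing by number and cannot exclude it. With the replicate block members were 1 higher and 8 lower with RSF1, 1 and 7 with RSF1delUAB, 5 and 1 in RSF1delUAB against RSF1, and 2 and 5 with the UAB peptide. Over all tested genes that block gave 5668 higher and 5496 lower with RSF1 and 5687 and 5320 with RSF1delUAB. It gave 3321 and 3012 in RSF1delUAB against RSF1, and 928 and 842 with the UAB peptide. A block with the OVCAR3 numbers crossed, chosen after seeing the data, gave 3 members higher and 6 lower, and 2560 genes higher and 2537 lower over all genes. DUSP4 had few counts in OVCAR3, and 2 libraries per group limit precision there.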
